A study of Homo sapiens with 8 samples.

Results

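IER5 and the strong p53 site downstream of it on chromosome 1 were examined in p53 ChIP-seq data (chromatin immunoprecipitation with sequencing) from 293T cells. The members were all deposited peaks overlapping the hg19 window from 181047000 to 181115000 by at least 1 bp, a window of 68 kb that was chosen by the fold enrichment of its strongest site in these same 4 lists. The window held 28 of the 97582 peaks, with 9 of 46658 and 5 of 16642 in the lists of doxorubicin replicates 1 and 2 and 5 of 11304 and 9 of 22978 in those of the saline replicates. It also held 5 of the 8784 peak pairs that the authors matched between the Dox replicates, and 3 of the 6244 PBS pairs. IER5 was placed at 181057638 to 181059979, as in the definition of the window.

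The Dox group was 293T cells given doxorubicin, a topoisomerase poison, at 0.5 µg/ml for 24 h, and the PBS group was 293T cells given 20 µl of phosphate-buffered saline for 24 h. Each group had 2 ChIP libraries made with the same p53 antibody, called Dox 1, Dox 2, PBS 1 and PBS 2 by their replicate numbers, with number 1 from passage 3 and number 2 from passage 5. All cells carried the large T antigen of simian virus 40, which binds and stabilises p53, and adenoviral early genes whose products also act on p53, so the PBS cells are not a model of p53 at rest in untransformed cells. The 4 input samples were not analysed here. Nothing in the labels says whether the cultures were independent beyond their passage, so p-values measure the spread between these libraries, which may be technical.

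IER5 is an immediate early gene, one of the genes switched on quickly by growth factors and stress, and it is a known target of p53 in human cells. Its protein brings the phosphatase PP2A to the heat shock factor HSF1, which activates chaperone genes. p53 binds DNA as a tetramer at paired half-sites, often far from the gene it activates, and a ChIP-seq peak away from a promoter is the usual form in which such a distal element is seen. A peak shows enrichment and not which gene, if any, the site controls.

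The RefSeq promoter of IER5 is shown because a peak lay over or just inside the start of the gene in all 4 libraries. It runs from 181088450 to 181088749 on the plus strand of chromosome 1 in build GRCh38.p14, with 250 bases before and 50 after the start. The 4 peak summits stood 162 to 317 bp inside the gene as placed on hg19. Whether this hg19 start and the RefSeq start are the same base was not tested. If they are, all 4 summits lie past the last printed base. Capitals mark matches to the TATA box motif TATANA, to the box motif CCAAT and to GAANNTTC, the core of a heat shock element, each searched on both strands.
IER5 promoter: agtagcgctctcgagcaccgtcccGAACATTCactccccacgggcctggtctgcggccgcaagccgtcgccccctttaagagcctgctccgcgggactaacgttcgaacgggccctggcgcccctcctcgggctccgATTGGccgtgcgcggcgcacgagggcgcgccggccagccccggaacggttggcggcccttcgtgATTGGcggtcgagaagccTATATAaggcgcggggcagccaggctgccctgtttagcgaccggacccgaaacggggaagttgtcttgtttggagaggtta

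The TATA box match began at base 220, counted from 1 at the 5′ end, and 19% of the 35116 promoters of the same length held such a match. The 2 CCAAT matches, both on the minus strand, began at bases 138 and 202, and 34.6% of promoters held one. The heat shock element core began at base 25, and 6.77% of promoters held it. A match to these letters is not a shown binding site of HSF1. No match to a GC box (GGGCGG), held by 45% of promoters, lay in these letters, and none of the 3 kinds of match that were found overlapped another.

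The p53 consensus, a pair of half-sites with a spacer of at most 13 bases, was searched in the same promoter. The best match began at base 80 with a spacer of 4 bases and had 3 mismatches, and 39.1% of promoters held a match as good or better. No match with at most 2 mismatches lay in this window, where 7.82% of promoters had one. CATG, the central bases of many p53 half-sites, did not occur in it and occurred in 54.9% of promoters. The search ended with the printed letters and may not have reached the bases under the 4 summits at the start of IER5. Whether those bases hold a p53 match was not tested. The downstream site was not searched, since no sequence on the build of the peak lists was used here.

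The downstream site was among the strongest p53 peaks of every library, with and without doxorubicin. The fold enrichment, the authors' ratio of ChIP signal at the summit over the caller's local background, was 22.92 in Dox 1 and 18.75 in Dox 2, against 19.96 in PBS 1 and 17.86 in PBS 2. The PBS 1 value lay between the Dox values and the PBS 2 value below both, so the groups overlapped. These folds chose the site, so they are a description, and no difference between conditions is drawn from folds of different lists, since each list has its own background.

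By p-value the site ranked first in 3 of the lists and 4 in the other. The −log10 p was 76.8 in Dox 1 and 74.9 in Dox 2, both the highest of their lists, where the next peaks had 70.1 and 66.7. It was 46.7 in PBS 1, again the highest, where the next peak had 35.6, and 69.3 in PBS 2, where the site ranked 4. By fold the site ranked 3 and 5 in Dox 1 and Dox 2, and 1 and 13 in PBS 1 and PBS 2. The plot of ranked lists shows these places.

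**Figure D1:**
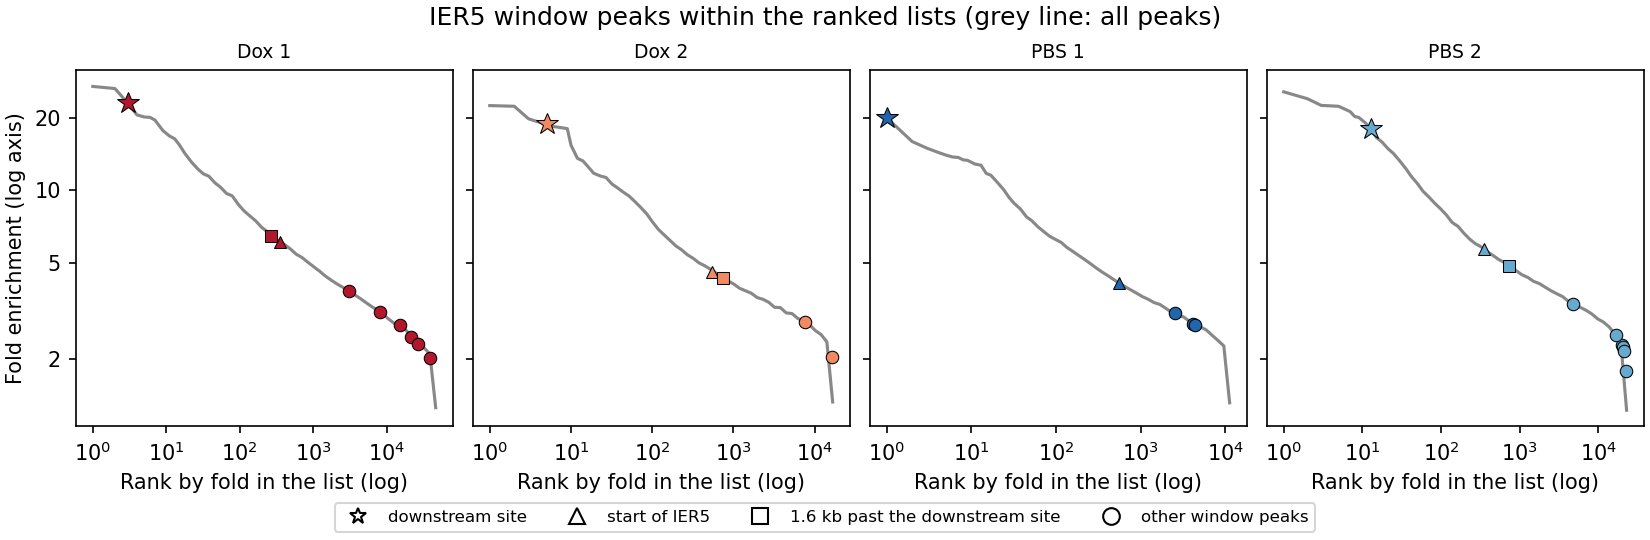
Fold enrichment against rank by fold, both on log axes, for all peaks of a list (grey line) and for the peaks of the IER5 window (symbols), 1 panel per library. The downstream site ranked 3 and 5 in the Dox lists and 1 and 13 in the PBS lists, and the peak at the start of IER5 ranked 354 and 542 in the Dox lists and 555 and 352 in the PBS lists.

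The peak at the downstream site spanned 181103982 to 181104608 in Dox 1, 181103884 to 181104610 in Dox 2, 181103800 to 181104549 in PBS 1 and 181103927 to 181104631 in PBS 2. Its summit, printed as deposited, stood at 181104276 and 181104293 in Dox 1 and Dox 2, against 181104283 and 181104294 in PBS 1 and PBS 2. The 4 summits thus fell within 18 bp, 46.6 to 46.7 kb from the start of IER5 and 44.3 kb past its end as placed here. The length of IER5 is 2342 bp in this hg19 placement and 4201 bp in RefSeq on GRCh38.p14, so a gene end taken from the longer model would give a shorter distance past the end. In RefSeq on GRCh38.p14 the next genes past IER5 in this direction are the long noncoding RNA genes LINC01732, LINC01699 and LOC107985454 and then CACNA1E, which encodes a calcium channel subunit. On the other side of IER5 lie the lncRNA LOC124904465, MR1, which presents microbial metabolites to T cells, and STX6, a syntaxin.

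The mean summit position at this site differed between Dox and PBS by less than the SD between replicates of either group. The mean peak width differed by less than the Dox SD and by more than the PBS SD. The mean summit was 181104284.5 ± 12.02 in Dox and 181104288.5 ± 7.78 in PBS (SD in bp, n = 2 each), a difference of -4.0 bp (two-sided exact permutation p = 0.667). The width was 627 and 727 bp in Dox 1 and Dox 2, against 750 and 705 bp in PBS 1 and PBS 2. The means were 677.0 ± 70.71 bp in Dox and 727.5 ± 31.82 bp in PBS (SD, n = 2 each), a difference of -50.5 bp (two-sided exact permutation p = 0.667). With 2 libraries against 2, no p below 0.33 is possible. The summits of libraries with the same replicate number lay 7 bp apart for number 1 and 1 bp apart for number 2.

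Smaller peaks lay on both sides of the downstream site. Some 1.6 kb further from IER5, a peak had 6.5-fold enrichment in Dox 1 and 4.32-fold in Dox 2, against none in PBS 1 and 4.84-fold in PBS 2. This peak was the second strongest of the window in Dox 1, ranked 264 by fold there, and ranked 741 in Dox 2 and 738 in PBS 2. Its summits stood at 181105819 and 181105971 in Dox 1 and Dox 2, against 181105764 in PBS 2, and ranged over 207 bp. PBS 1, which listed no peak there, had the shortest of the 4 lists, and the part of list length in this was not tested.

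On the side towards IER5, 1.3 kb from the main summit, a peak was present in Dox 1 and Dox 2 and absent from PBS 1 and PBS 2, with 3.83-fold enrichment in Dox 1 and 2.84-fold in Dox 2. These peaks spanned 181102844 to 181103141 and 181102827 to 181103317, and their −log10 p was 4.27 and 2.45. Neither reached a q of 0.05, with −log10 q of 0.535 and 0. PBS 2 had another small peak on this side, closer to the main one, at 181103616 to 181103808 with 2.51-fold enrichment. It touched the PBS 1 peak and was merged into the main site.

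**Figure D2:**
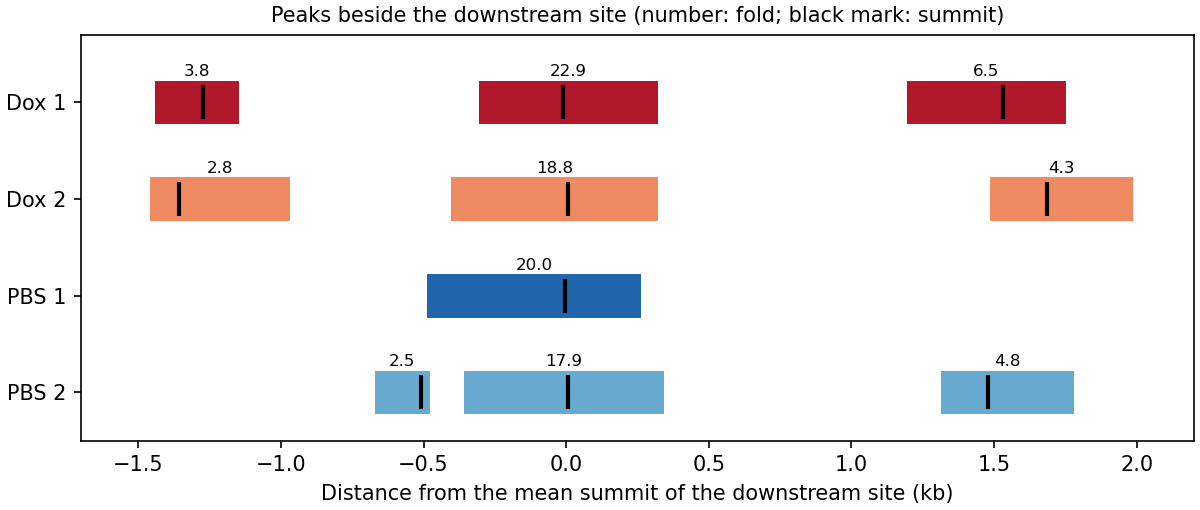
Peaks of the 4 libraries beside the downstream site, as bars from start to end on an axis of distance from the mean main summit (kb), with the summit as a black mark and the fold above each bar. The main summits line up within 18 bp, the right-hand peak is in 3 libraries, and the left-hand peak 1.3 kb away is in the Dox libraries alone.

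Side peaks of this kind also lay beside other strong sites. Of the 206 sites with q of at most 0.05 in all 4 libraries, 100 had a site of 2 or more libraries within 2 kb on at least 1 side, and 45 (21.8%) had one on both sides, the downstream site among them. Within each list the peak 1.6 kb beyond had 28.4% and 23.1% of the fold of the main peak in Dox 1 and Dox 2, against 27.1% in PBS 2. The peak 1.3 kb before had 16.7% and 15.1% in Dox 1 and Dox 2.

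A weaker peak lay at the start of IER5 in every library. By the hg19 placement used here, it covered the start in Dox 1 and PBS 2. It began 47 bp inside the gene in Dox 2 and 164 bp inside it in PBS 1. Whether the peaks cover the RefSeq start, by which the promoter was printed, was not tested. The fold of the peak at the start was 6.11 in Dox 1 and 4.59 in Dox 2, against 4.13 in PBS 1 and 5.73 in PBS 2. The highest value was from a Dox library and the lowest from a PBS library, and the others crossed, so the values overlapped. As at the downstream site, nothing about the conditions is drawn from folds of different lists. The −log10 p was 8.68 and 6.46 in Dox 1 and Dox 2, against 4.6 and 8.76 in PBS 1 and PBS 2. As a share of the downstream fold in the same list, the start had 26.6% and 24.5% in Dox 1 and Dox 2, against 20.7% and 32.1% in PBS 1 and PBS 2, so the PBS values lay on both sides of the Dox values.

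The peaks at the start spanned 181057626 to 181058166 and 181057685 to 181058084 in Dox 1 and Dox 2, against 181057802 to 181058120 and 181057611 to 181058139 in PBS 1 and PBS 2. Their summits stood 317 and 244 bp inside the gene in Dox 1 and Dox 2, against 252 and 162 bp in PBS 1 and PBS 2. All 4 summits were on the transcribed side of the start as placed here, which was not mapped onto the RefSeq start. They ranged over 155 bp, more than at the downstream site.

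Peaks with q of at most 0.05 numbered 3 in Dox 1, 2 in Dox 2, 1 in PBS 1 and 3 in PBS 2. Over whole lists the share of such peaks was 3.65% and 4.84% for Dox 1 and Dox 2, against 2.56% and 5.84% for PBS 1 and PBS 2. The downstream site passed in all 4 libraries and the start of IER5 in 3, since its −log10 q was 4.18 and 2.01 in Dox 1 and Dox 2, against 0.236 and 4.21 in PBS 1 and PBS 2. The peak 1.6 kb beyond passed in Dox 1 and PBS 2, and its −log10 q was 1.26 in Dox 2. The window was chosen on these lists, so nothing is read from these counts against the background.

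Further weak peaks lay along IER5 itself. Inside the gene, 3 libraries had a peak, with 3.15-fold and 2.05-fold enrichment in Dox 1 and Dox 2, against 2.3-fold in PBS 2. Its summits were scattered over 554 bp, and 1 of them, in Dox 2, stood at the last base but 1 of its peak or at the last base, depending on how the deposited summit is counted. PBS 1 had no peak there and instead a 2.8-fold peak over the end of the gene as placed here, from 181059881 to 181060123. None of these peaks had a −log10 q above 0.

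Between IER5 and the downstream site the peaks were weak, at no more than 3.83-fold, and most sites had a peak in 1 library only. Over the whole window the 28 peaks merged into 14 sites, of which 7 had a peak in 2 or more libraries and 7 in 1 library only. The 7 peaks found in 1 library had 2.03-fold to 3.39-fold enrichment and a −log10 q of 0. Dox 1 held 3 of them, Dox 2 held 0, PBS 1 held 2 and PBS 2 held 2. A site 17.6 kb from the start of IER5, from 181075004 to 181075442, had a peak of 2.77-fold in Dox 1 and of 1.79-fold in PBS 2. The last site of the window, from 181111650 to 181112012, had no peak in either Dox library, and 2.76-fold and 2.16-fold enrichment in PBS 1 and PBS 2.

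**Figure D3:**
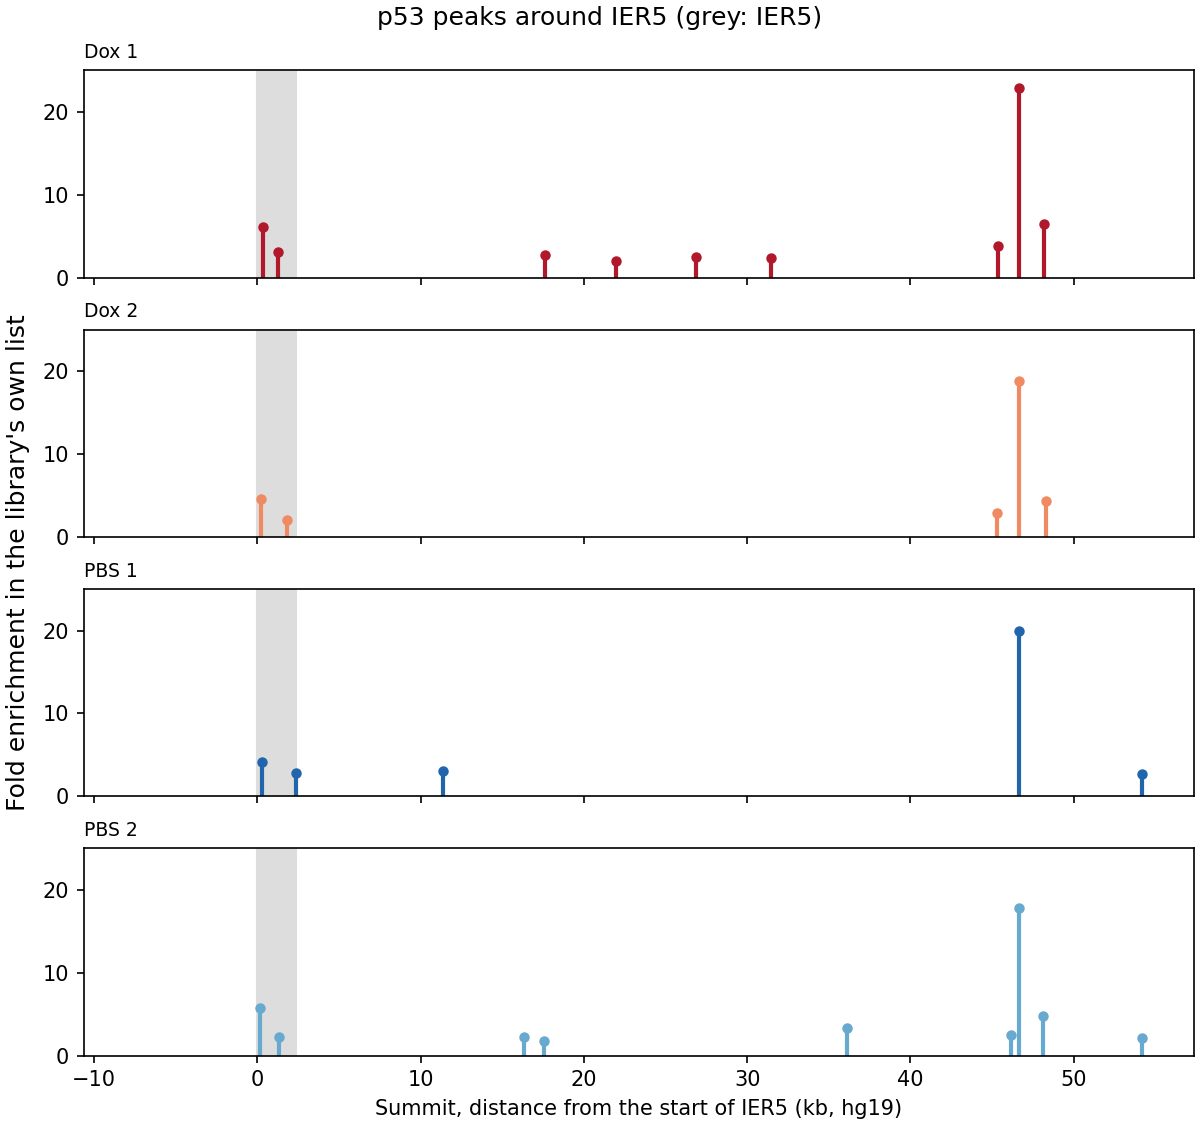
Fold enrichment of each peak in the window against the distance of its summit from the start of IER5 (kb), 1 panel per library, with IER5 as a grey band. In all 4 panels the highest peak stands 46.6 to 46.7 kb from the start, with 22.92 and 18.75 in the Dox libraries and 19.96 and 17.86 in the PBS libraries.

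Most sites of the window were confined to the libraries of 1 treatment, at 9 of 14, as were 76.5% of all 63890 sites, and 7 of the 9 had a peak in 1 library only. The other 5 had peaks of both treatments. With a peak in all 4 libraries there were 2 of the 14 sites, the start of IER5 and the downstream site, where 6.01% of all sites had one. With a peak in both Dox libraries and no PBS library there was 1 site, the peak 1.3 kb before the downstream site, where 3.11% of all sites had this pattern. With a peak in both PBS libraries and no Dox library there was 1 site, at the end of the window, where 0.928% had it. Since 1 of 14 sites is the smallest count above 0, neither is read as more than the background. Just outside the window, the nearest site on the left lay 0.8 kb from the edge with 2.91-fold enrichment in PBS 2 alone, and the nearest on the right 21.2 kb away with 2.47-fold in Dox 1 alone.

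The number of peaks in the window was the same on average with and without doxorubicin. Dox 1 and Dox 2 had 9 and 5 peaks and PBS 1 and PBS 2 had 5 and 9, with means of 7.0 ± 2.83 in Dox and 7.0 ± 2.83 in PBS (SD, n = 2 each; difference 0.0, two-sided exact permutation p = 1). Within replicate number 1 Dox had 4 peaks more than PBS, and within number 2 the difference was -4 peaks. The lists differ in length, and when the 11304 peaks with the smallest p were taken from each list the window held 5 and 4 peaks in Dox 1 and Dox 2, against 5 and 4 in PBS 1 and PBS 2.

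The window, which was chosen around a strong site, was denser in peaks than most of the genome. Stretches of the same length were laid end to end over each chromosome, 44635 in all. As many peaks as in the window, or more, were found in 2.21% and 1.37% of stretches for Dox 1 and Dox 2, and in 0.663% and 0.437% for PBS 1 and PBS 2. The mean was 1.05 and 0.375 peaks per stretch in the Dox libraries, and 0.255 and 0.518 in the PBS libraries. Stretches without mapped sequence are counted here, which lowers these means and shares.

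The summit at the downstream site, which was chosen for its fold, was placed more narrowly than at most shared sites. Over the 3840 sites with a peak in all 4 libraries, the median range of the summit was 205 bp, and 82 sites (2.14%) had a range of 18 bp or less. Among the 206 sites with q of at most 0.05 in all 4 libraries the median was 49 bp, and 33 (16%) were at 18 bp or less. Stronger sites thus had narrower ranges as a set, so the place of this chosen site among all shared sites is not read as particular to it. At the start of IER5 the range of 155 bp was near the middle of the first set, where 41.4% were at or below it, and wide for the second, where 84.5% were. The start is not a member of the second set.

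**Figure D4:**
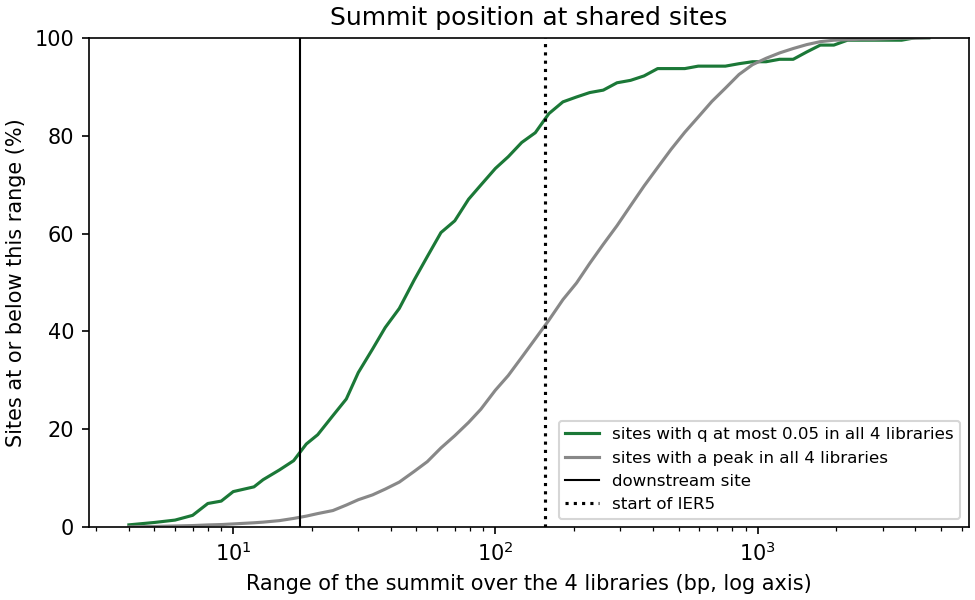
Share of sites (%) whose summit ranged over no more than a given distance (bp, log axis) across the 4 libraries, for sites with q of at most 0.05 in all 4 (green) and for all sites with a peak in all 4 (grey). The downstream site, at 18 bp, lies at 16% of the first set and 2.14% of the second, and the start of IER5, at 155 bp, lies far to its right.

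The sites most like the downstream site in fold were sought over the 4 lists, by the mean absolute difference of log2 fold taken within each list. The nearest, on chromosome 11 from 65190010 to 65191612, differed by 0.22, with 26.4-fold and 22.4-fold enrichment in Dox 1 and Dox 2, against 14.9-fold and 17.9-fold in PBS 1 and PBS 2. The next, on chromosome 17 from 43225665 to 43227581, differed by 0.27, with 20.1-fold and 22.3-fold in Dox 1 and Dox 2, against 14.4-fold and 20.2-fold in PBS 1 and PBS 2. The third, on chromosome 21 from 34739306 to 34740256, differed by 0.39, with 20-fold and 15.4-fold in Dox 1 and Dox 2, against 11.7-fold and 14.4-fold in PBS 1 and PBS 2. Their summits ranged over 15, 14 and 18 bp, as narrowly as at the downstream site.

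Among the pairs of peaks matched between replicates, the downstream site led the Dox table. Its irreproducible discovery rate (IDR, the q-value of a pair not being reproducible) was 3.09e-07 in Dox, rank 1 of 8784 pairs, and 1.5e-05 in PBS, rank 30 of 6244. The start of IER5 had an IDR of 0.000233 in Dox, rank 406, and of 0.00565 in PBS, rank 376. The peak 1.6 kb beyond the downstream site was paired in Dox alone, with an IDR of 0.000152. Pairs with an IDR of at most 0.05 thus numbered 3 of 5 in Dox and 2 of 3 in PBS, where such pairs made up 27.5% and 15.0% of the tables. The window was chosen on the peaks that were paired here, so nothing is read from these ranks and shares against the background.

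The lower place of the downstream site in the PBS table went with an averaged p-value. For PBS 2 the pair spanned 181103616 to 181104631, both the small and the main peak, and carried a −log10 p of 35.8, the mean of 2.22 and 69.3 for those peaks in the list. Over the tables, 864 of 17568 values in Dox (4.92%) and 570 of 12488 in PBS (4.56%) were means of several peaks, and all others equalled the −log10 p of the peak in the list to within 0.0001. The IDR that the main peak alone would have had was not tested.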

How the data were processed

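BWA and MACS2 with build hg19 are named in the submitters' processing notes. Versions, filters and controls were not stated. The authors gave 1 deposited peak list per ChIP library, called at p under 0.05 per the peak names, with the fold (a ratio) and the p-value and q-value as −log10 for each peak. Summits are deposited as chromosome coordinates. Some summits equal the start and others the end of their peak, so whether they count from 0 or 1 is not settled. Summit positions may thus be off by 1 bp. Per the file headers, the deposited tables of matched pairs give the −log10 p of both peaks and the IDR as a q-value. Sequencing depth is not known from these files, so no interval is given.

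Starts were converted to count from 1. Peaks sharing at least 1 bp were merged into sites, and ranks and percentiles were taken within each list. In simulated data, merging recovered all planted sites, which lay far apart, and the p53 search found all planted exact matches. Merging of neighbouring sites and the searches for the other motifs were not tested in this way. Replicate means were compared by two-sided exact permutation tests. Described by rule were sites of 2 or more libraries, the 3 sites nearest in log2 fold and the sites at the edges. The window and lists were chosen with earlier results of these data known, and the promoter search, the summit ranges, the flanking sites and the stretches were added after the data were seen. Promoters and gene order came from RefSeq, GRCh38.p14, where IER5 matched by symbol. The p53 consensus at the downstream site and the comparison with other p53 target genes were planned and not run, since positions and sequence on hg19 were not used here. The calculations used scipy 1.17.1 and numpy 2.4.6 with tables in pandas 2.3.3, under Python 3.11.15, and plots were drawn with matplotlib 3.10.9.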

Additional observations from a re-analysis of the deposited data

Results flagged for a closer look

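The difference in the number of window peaks, Dox minus PBS, was 4 within replicate number 1 and -4 within replicate number 2, and so had opposite signs at passages 3 and 5. The width of the peak at the downstream site differed by -123 bp within number 1 and by 22 bp within number 2. Each value rests on 1 library per condition, and whether the numbers differ was not tested.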

How the results depend on the processing

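The window peaks gave a Dox minus PBS difference of 0.5 with q of at most 0.05, 1.0 with −log10 p of at least 5, and 0.0 by summit position, at equal list length and with the replicate block, and of -2.0 to 2.0 without single libraries. At the downstream site the summit difference of -4.0 bp became 44.2 bp for the middle of the peak, and ran from -12.5 to 4.5 bp without single libraries. It stayed -4.0 bp with the replicate block (exact p = 0.5, the smallest 2 pairs allow), and the width difference ran from -100.5 to -0.5 bp. Sites in all 4 libraries fell to 1 of the 2, the downstream site, with q of at most 0.05 and with −log10 p of at least 5. Without PBS 1, 4 sites had a peak in the 3 remaining libraries, and 2 without any other library. The lowest fold percentile of the downstream site, 99.95, became 99.99 by p and 99.11 among peaks with q of at most 0.05, with 99.95 to 99.98 without single libraries. Dox pairs numbered 3 in place of 5 at an IDR of at most 0.05. Replicate numbers share a passage and are not known to share a culture. Over the 3840 sites with a peak in all 4 libraries, the replicate differences in Dox and in PBS had a Pearson correlation of 0.19. Whether replicate numbers form pairs is not read from this value. Stricter limits make shorter lists, and the cause of the changes between settings was not tested. Input signal and depth were not analysed here, which limits any statement on a missing peak.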
